A study of Mus musculus with 10 samples.

Results

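The 10 genes described here encode the NF-kB transcription factors and the proteins that hold them in check. They were the 5 subunits (Nfkb1, Nfkb2, Rel, Rela and Relb), the inhibitors Nfkbia, Nfkbib and Nfkbie, the nuclear IkB protein gene Nfkbiz and Tnfaip3, which encodes A20. Members were chosen by name, as the rows of the deposited count table that carry these symbols, and each of the 10 symbols matched 1 row of the 39017 in that table. All 10 passed the filter on low counts.

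RNA sequencing was done on 10 mouse lung tumors, 5 of the genotype KP (labelled Control) and 5 of the genotype KPG1 (labelled KO), each after removal of cells that carry the leukocyte marker CD45. All animals were C57BL/6 males with the Cre-dependent KP alleles, which start lung adenocarcinoma and are not reported further here. In KPG1 mice both alleles of Slc2a1, which encodes the glucose transporter Glut1, were floxed as well. The labels of the KP samples give fl/wt for Slc2a1 in one field and WT in another, so some or all controls may have lost 1 copy. Tumors were started with an adenovirus that expresses Cre from the SPC promoter, which is active in alveolar type 2 cells, and were collected 18 weeks and 6 days later. Only the infected cells and their descendants carry the deletion, so any stromal RNA in a library comes from cells with unrecombined alleles.

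NF-kB subunits form dimers that are kept in the cytoplasm by IkB proteins. A signal from receptors such as the TNF or interleukin-1 receptor activates the IkB kinase complex, IkB is degraded and the dimer enters the nucleus. Among the genes it switches on are those of its own inhibitors IkB-alpha and A20, a negative feedback loop, which is why their transcripts are widely read as a record of recent signaling.

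The promoter sequences of 3 inhibitor genes (Nfkbia, Tnfaip3 and Nfkbie) are shown because NF-kB is known to bind such sites. Each is the 130 bases before the RefSeq start (build GRCm38.p6), 5′ to 3′ on the gene's strand, with matches to the kappaB consensus on either strand in capitals. The windows are chr12:55492648-55492777 (minus strand) for Nfkbia, chr10:19015411-19015540 (minus) for Tnfaip3 and chr17:45555570-45555699 (plus) for Nfkbie.
Nfkbia: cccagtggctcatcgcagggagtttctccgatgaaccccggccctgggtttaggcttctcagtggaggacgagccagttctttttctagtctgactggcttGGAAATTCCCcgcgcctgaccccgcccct
Tnfaip3: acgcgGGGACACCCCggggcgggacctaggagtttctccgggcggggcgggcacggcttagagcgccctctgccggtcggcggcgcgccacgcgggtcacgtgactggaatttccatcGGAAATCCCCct
Nfkbie: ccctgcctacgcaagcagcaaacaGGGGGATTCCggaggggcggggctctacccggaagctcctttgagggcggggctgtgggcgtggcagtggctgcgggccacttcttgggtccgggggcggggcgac
The match of Nfkbia began 29 bases before the start, the matches of Tnfaip3 began 125 and 12 bases before it, and that of Nfkbie began 106 bases before it. In the 250 bases before a start, 5 of the 7 members with a RefSeq window held a match (Nfkb2, Rel, Nfkbia, Nfkbie and Tnfaip3), and Rela and Nfkbib held none. Among all 27025 genes with a window, 8.23% held a match in at least 1. By window, 7 of the 10 windows of members held a match, against 7.25% of all 32851 windows. Overlapping matches occurred in Rel and Nfkb2. A match is a string of letters in this window and no measurement of binding. Nfkb1, Relb and Nfkbiz had no window in the table.

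Nfkbiz, Nfkbia, Tnfaip3 and Relb had lower fitted values in KPG1 tumors, but 0 of 10 members passed an adjusted p of 0.05 in limma or edgeR. DESeq2 called 3 (Relb, Nfkbia and Nfkbiz), where it called 3.46% of the 15823 genes to which it gave an adjusted p. At an unadjusted p under 0.05, limma and edgeR each gave 4 members, all with lower values in KPG1: Relb, Nfkbiz, Nfkbia and Tnfaip3. The fitted value was below 0 for 9 of 10 members, and the median log2 fold change was -0.37 against 0.02 over all 16216 genes tested. Over all these genes, 0.173% passed the adjusted threshold in either direction in limma and 0.247% in edgeR, and in limma 6.31% had an unadjusted p under 0.05 and were lower in KPG1. Fewer cells of a type and less RNA per cell cannot be told apart in these bulk libraries.

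Libraries held 32427029 to 49534284 counts. Slc2a1 was lower in all 5 KPG1 libraries, at 49.7% of the KP level (log2 fold change -1.01, SE 0.20, limma adjusted p 0.0675), which passed under DESeq2 (adjusted p 0.00026), with a weight per library (0.017) and without KP 5 (0.022), while the other alternatives reached 0.23. KP 5 was the lowest of the 5 KP libraries for 5 members, and its sample number lies among those of the KPG1 samples. KP 1 was the lowest for 4 members and the highest for 4. The alveolar type 2 markers Sftpc and Sftpb were present in every library at 5363 CPM or more, and summed over 10 epithelial markers the level was 19452 to 60501 CPM in KP, with KP 1 the lowest, and 47961 to 85243 CPM in KPG1. Of these 10 markers 9 had a fitted value above 0 (median log2 fold change 0.45), and Sftpc, Abca3 and Slc34a2 had an unadjusted p under 0.05, with limma adjusted p of 0.27 to 0.43. Abca3 was at 337 to 1430 CPM in KP and 1489 to 2658 CPM in KPG1, without overlap. Of 17 leukocyte markers none was at 0 in all libraries. In KP their sum ranged from 542 to 3799 CPM, and in KPG1 from 2155 to 6376 CPM, most of it Lyz2, which alveolar type 2 cells also express. Ptprc, the gene of CD45 itself, was at 5.21 to 9.97 CPM in KP and 5.42 to 10.96 CPM in KPG1. Of the 14 leukocyte markers tested, 10 had a fitted value below 0 (median -0.28) and 3 an unadjusted p under 0.05, all lower in KPG1 without overlap, as Nfkbiz, Nfkbia and Tnfaip3 had lower values there. These were the neutrophil genes S100a8 (1.29 to 4.31 CPM in KP, 0.20 to 1.08 in KPG1, log2 fold change -1.84, limma adjusted p 0.21) and S100a9 (2.17 to 7.20 and 0.34 to 1.44 CPM, -1.98, adjusted p 0.14) and the myeloid integrin gene Itgam (6.15 to 16.6 and 2.51 to 5.80 CPM, -1.04, adjusted p 0.26). The endothelial sum (305 to 1048 CPM in KP, 469 to 1497 in KPG1), the fibroblast and smooth muscle sum (125 to 458 and 212 to 350) and the erythroid sum (86.2 to 473 and 153 to 330) overlapped between groups. The part of these cells in the results below was not tested.

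Per length, Nfkbia, Nfkbiz, Rela and Tnfaip3 had the highest means in both groups. Levels were CPM, the usual count scaled to library size and composition, divided by the exonic length in kilobases. In KP tumors Nfkbia was highest (111 ± 53.0 CPM per kb, SD, n = 5), followed by Nfkbiz (71.4 ± 36.7), Rela (30.4 ± 6.85), Tnfaip3 (17.9 ± 8.12), Nfkb2 (11.9 ± 2.46), Nfkb1 (8.00 ± 1.41), Relb (7.99 ± 0.98), Nfkbib (6.17 ± 1.55), Nfkbie (2.44 ± 1.04) and Rel (0.89 ± 0.16). In KP the ranges of neighbors in this order overlapped from Nfkbia down to Nfkbib. They did not overlap between Nfkbib and Nfkbie or between Nfkbie and Rel. Ranges were compared across libraries and not within each library. In KPG1 tumors Rela (23.7 ± 2.55) stood above Nfkbiz (17.8 ± 9.22), and their ranges overlapped. The range of Nfkbia in KPG1 (54.8 ± 11.3) lay above that of every other member, and Nfkb1 lay above Relb without overlap there. Rel, the subunit typical of lymphocytes, was the lowest member in both groups, with 156 to 307 counts per library.

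**Figure D1:**
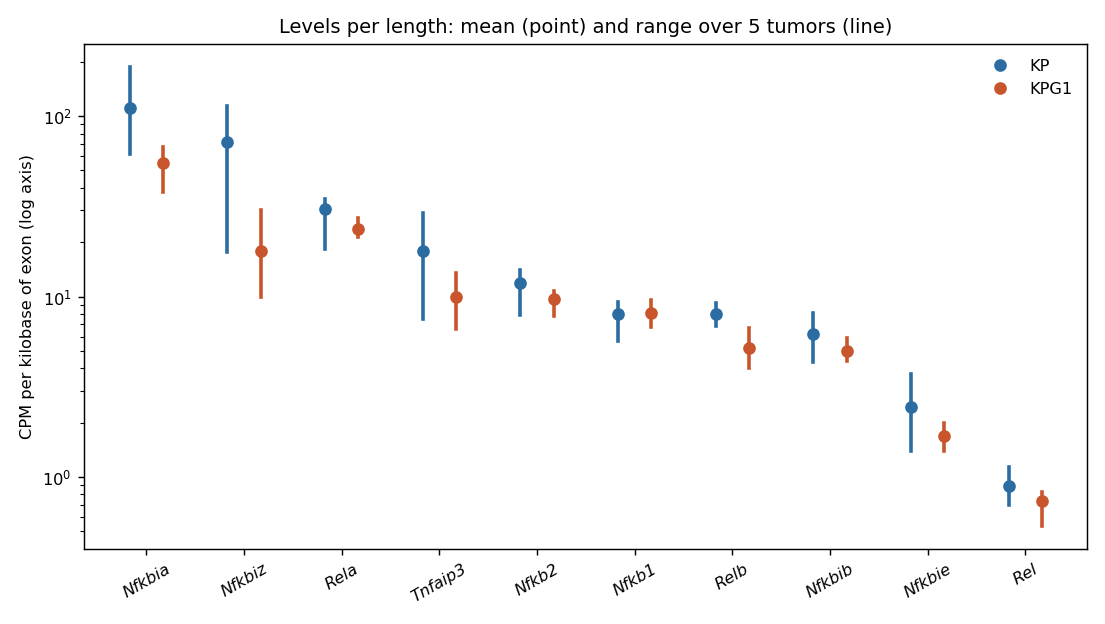
Level of each member per length (CPM per kilobase of exon, log axis) in KP and KPG1 tumors, ordered by the KP mean; points are means and lines the range over 5 tumors. Nfkbia was highest in both groups and Rel lowest, and the KPG1 range of Nfkbiz (9.93 to 30.1) reached below that of Rela (21.5 to 27.3).

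The share of each subunit in the summed subunit level overlapped between groups. Rela, the subunit with the strongest transactivation domain that pairs with the Nfkb1 product p50, took 41.0% to 58.6% of the summed subunit level in KP and 44.6% to 51.9% in KPG1. Nfkb2, precursor of the alternative pathway subunit, took 17.6% to 21.8% and 18.7% to 21.6%. Nfkb1 took 9.50% to 20.7% in KP and 15.6% to 19.1% in KPG1, Relb 11.6% to 18.7% and 9.29% to 13.4%, and Rel 1.18% to 2.10% and 1.017% to 1.91%. The summed inhibitor level (Nfkbia, Nfkbib and Nfkbie) was 3.28, 2.20, 1.87, 1.14 and 1.54 times the summed subunit level in KP 1 to KP 5, and 1.58, 1.29, 1.35, 0.89 and 1.41 times in KPG1 1 to KPG1 5. Nfkbia made up 86.5% to 96.4% of that inhibitor sum in every library. KP 1 had the most inhibitor per subunit, and the ratios of the groups overlapped.

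Relb, the subunit that acts with Nfkb2 in the alternative pathway, had the smallest p of the members in limma, while Nfkbiz had a smaller one in edgeR, DESeq2, with a weight per library and without KP 5, KPG1 1 or KPG1 5. It lies on chromosome 7 (19606217 to 19629438, minus strand, mm10). KP tumors 1 to 5 stood at 4.74, 5.17, 5.02, 4.79 and 5.03 log2 CPM, and KPG1 tumors 1 to 5 at 3.97, 4.71, 4.22, 4.25 and 4.42. All KPG1 tumors were below all KP tumors, but KPG1 2 was just under KP 1 and KP 4. KPG1 held 64.2% of the KP level (log2 fold change -0.64, SE 0.15, limma adjusted p 0.15), with an unadjusted limma p of 0.0015. The exact two-sided permutation test of log2 CPM gave p 0.0079, the smallest that 5 against 5 can give. DESeq2 called the gene (adjusted p 0.0080, the lowest of the alternatives, which reached 0.39). Relb was the only member of the 10 whose groups did not overlap, and 1.76% of all genes tested were lower in KPG1 without overlap. Without KP 5 that count was 4 of 10 (Nfkb2, Rela, Relb and Nfkbiz), against 4.24% of all genes, and without KPG1 5 it was 2 (Relb and Nfkbia), against 2.55%.

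Rela (chromosome 19, 5637483 to 5648130, plus strand), the gene of RelA or p65, did not pass, and its call turned on 1 library. KP tumors 1 to 4 stood at 6.74, 6.73, 6.67 and 6.60 log2 CPM and KP 5 at 5.82. KPG1 tumors 1 to 5 stood at 6.08, 6.10, 6.05, 6.29 and 6.39. The KPG1 tumors lay between KP 5 and the other 4 KP tumors. The log2 fold change was -0.33 (SE 0.18, 95% interval -0.72 to 0.06, limma adjusted p 0.51). Without KP 5 it was -0.52 and passed (limma adjusted p 0.042, where 1.78% of all genes passed), and the other alternatives reached 0.71.

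The other 3 subunits overlapped widely between groups. Nfkb2 was at 5.18 to 6.01 log2 CPM in KP, the lowest being KP 5, and at 5.16 to 5.62 in KPG1 (log2 fold change -0.28, 95% interval -0.66 to 0.10, limma adjusted p 0.56). Psd and AC114539.1 on the opposite strand share its position (chromosome 19, 46304320 to 46312385), and whether counting used strand is not given in the sources used here. Rel was at 2.40 to 3.09 in KP and 2.02 to 2.64 in KPG1 (-0.25, interval -0.68 to 0.18, adjusted p 0.65). Nfkb1 (chromosome 3, 135584655 to 135691547), the gene of p105 and p50, overlaps Gm43430 on its own strand. It was at 6.09 to 6.81 in KP and 6.36 to 6.85 in KPG1 (0.03, interval -0.31 to 0.37, adjusted p 0.96), and its fitted value changed sign without KP 1, KPG1 2 or KPG1 5 (-0.093, -0.039 and -0.0014).

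**Figure D2:**
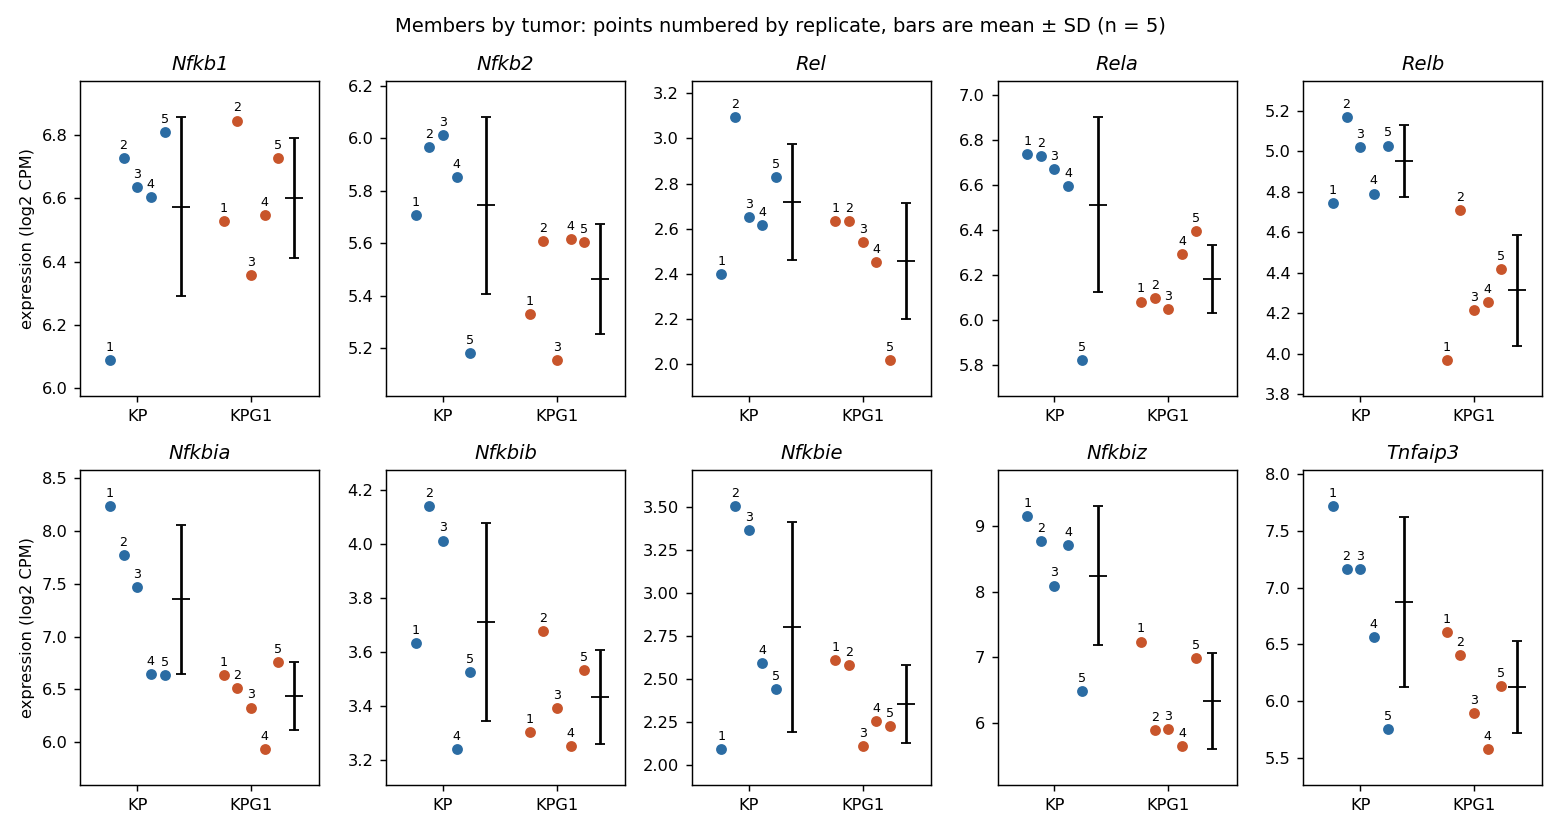
Expression (log2 CPM) of the 10 members in each tumor, KP in blue and KPG1 in orange, numbered by replicate; bars are mean ± SD (n = 5). Relb does not overlap between groups, and KP 5 is below the other KP tumors for Rela (5.82 against 6.60 to 6.74), Nfkbiz (6.48 against 8.09 to 9.16) and Tnfaip3 (5.76 against 6.57 to 7.72).

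Among the inhibitors and feedback genes, Nfkbiz had the largest difference. It encodes IkB-zeta, a nuclear IkB protein induced by Toll-like receptor and interleukin-1 signals that acts as a coactivator at secondary response genes. It lies on chromosome 16 (55811375 to 55838899, minus strand). KP tumors 1 to 5 stood at 9.16, 8.78, 8.09, 8.72 and 6.48 log2 CPM, and KPG1 tumors 1 to 5 at 7.24, 5.89, 5.90, 5.64 and 6.99. KP 1 to KP 4 stood above all KPG1 tumors, and KP 5 lay within the KPG1 range. KPG1 held 26.5% of the KP level (log2 fold change -1.92, SE 0.49, limma adjusted p 0.18), and the exact two-sided permutation p was 0.024. The gene passed under DESeq2 (adjusted p 0.00094), with a weight per library (0.017, where 1.41% of all genes passed) and without KP 5 (log2 fold change -2.37, limma adjusted p 0.021), while the other alternatives reached 0.41.

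Nfkbia, the gene of IkB-alpha that carries the kappaB match shown above, spread over 1.597 log2 CPM within KP. It lies on chromosome 12 (55489410 to 55492647, minus strand). KP tumors 1 to 5 stood at 8.24, 7.78, 7.47, 6.64 and 6.64 log2 CPM, and KPG1 tumors 1 to 5 at 6.64, 6.51, 6.33, 5.94 and 6.76. KP 1 to KP 3 exceeded all KPG1 tumors, and the others were at the upper end of KPG1. KPG1 held 52.9% of the KP level (log2 fold change -0.92, SE 0.30, limma adjusted p 0.28, exact two-sided permutation p 0.032). DESeq2 called the gene (adjusted p 0.035), and the other alternatives reached 0.53.

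Tnfaip3 encodes A20, which edits ubiquitin chains to end signaling from the TNF receptor. It lies on chromosome 10 (19000910 to 19015657, minus strand). KP tumors 1 to 5 stood at 7.72, 7.17, 7.16, 6.57 and 5.76 log2 CPM, and KPG1 tumors 1 to 5 at 6.61, 6.41, 5.90, 5.59 and 6.14. KP 1 to KP 3 were above all KPG1 tumors, KP 4 was just under KPG1 1, and KP 5 was within the KPG1 range. KPG1 held 59.6% of the KP level (log2 fold change -0.75, SE 0.33, limma adjusted p 0.42, exact two-sided permutation p 0.095), and no alternative called it at the adjusted threshold.

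The remaining cytoplasmic inhibitors were low and overlapped. Nfkbib, the gene of IkB-beta, was at 3.24 to 4.14 log2 CPM in KP and 3.25 to 3.68 in KPG1 (log2 fold change -0.26, 95% interval -0.68 to 0.16, limma adjusted p 0.63), and Ccer2 and Sirt2 on the opposite strand share its position. Nfkbie, the gene of IkB-epsilon, was at 2.10 to 3.51 in KP and 2.11 to 2.61 in KPG1 (-0.42, interval -1.05 to 0.21, adjusted p 0.61). Nfkbie was lowest in KP 1, the library with the highest Nfkbia.

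**Figure D3:**
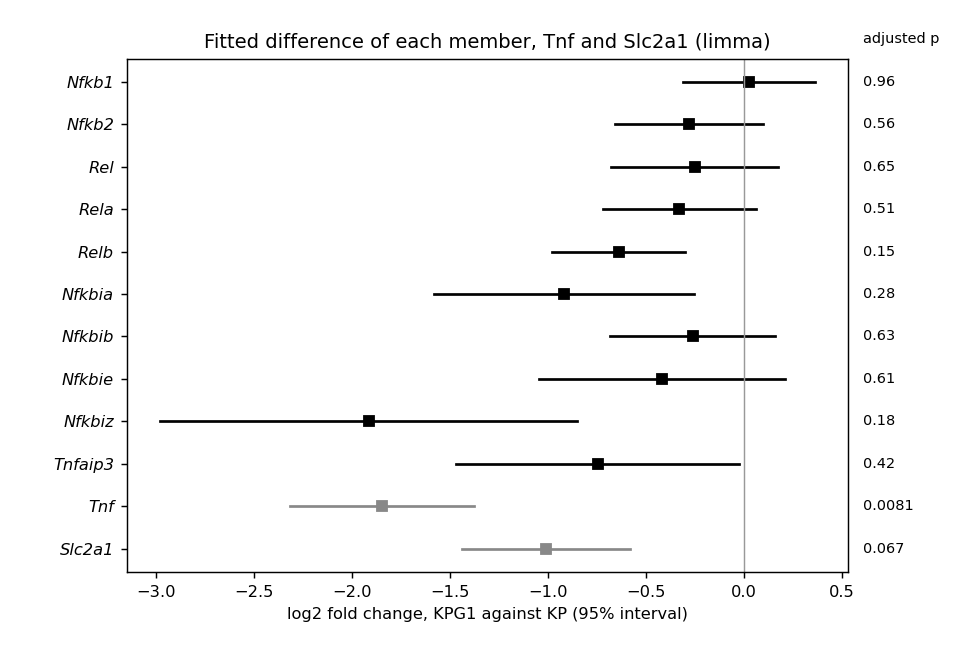
Log2 fold change (KPG1 against KP) with its 95% interval for each member, and for Tnf and Slc2a1 in gray, with the limma adjusted p over all 16216 genes at the right. The intervals of Relb, Nfkbia, Nfkbiz and Tnfaip3 lie below 0 and no member has an adjusted p under 0.05.

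Members did not vary as 1 block within a genotype. After centering each gene on its group mean, 33 of the 45 pairs of members correlated positively over the 10 libraries and 12 negatively (median r 0.30). The highest was Nfkbia with Tnfaip3 (r 0.89, exact permutation p 0.0026; rho 0.89, p 0.0043; r 0.88 without the 2 libraries farthest from the median of Nfkbia). Nfkb1 and Relb followed each other as well (r 0.71, exact permutation p 0.014; rho 0.88, p 0.0025; r 0.84 without 2 libraries). Nfkb2 with Rela (r 0.86, exact permutation p 0.023; rho 0.62, p 0.073) and Nfkbiz with Tnfaip3 (r 0.80, exact permutation p 0.017; rho 0.81, p 0.0076) rested in part on single libraries, since r fell to 0.41 and 0.43 without 2 of them. The lowest pair was Nfkb1 with Tnfaip3 (r -0.43, exact permutation p 0.31; rho -0.30, p 0.43; r -0.20 without 2). For r without 2 libraries the values were not recentered. The p values are not adjusted, and 55 relations were computed in all, those with Tnf included.

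Among 12877 genes whose mean log2 CPM reached 1, those most like Relb by the same centered r over 10 libraries were Rassf7 (0.97), Rpl18 (0.93), Cd151 (0.91), Cacnb2 (0.89) and Atpif1 (0.89). Among those most like Nfkbia were Sptlc1 (0.97), Dmtn (0.96), Gkap1 (0.95) and Tbc1d7 (0.95). Tnfaip3 ranked 44 for Nfkbia, and Nfkb1 ranked 174 for Relb. These are the extremes of a long ranking and are given as a description.

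Tnf, the ligand that signals to NF-kB and is also one of its targets, was lower in KPG1. KP tumors stood at 3.70 to 4.44 log2 CPM and KPG1 tumors at 1.76 to 2.62, so the groups did not overlap (log2 fold change -1.85, SE 0.21, limma adjusted p 0.0081). Of the single libraries left out, only KPG1 4 cost Tnf its call (-1.82, limma adjusted p 0.0502). Since Tnf separates the groups, a correlation over all 10 libraries would mostly repeat the genotype, and the relation was examined within genotypes only. In a limma model with genotype and centered Tnf, 0 of 10 members and 0% of 16215 genes passed an adjusted p of 0.05, edgeR gave 0 members as well, and 0 members against 5.03% of all genes had an unadjusted p under 0.05. Centered r ran from -0.42 to 0.53, with 7 members above 0 and 3 below. Rela had the largest (r 0.53, exact permutation p 0.11; rho 0.30, p 0.37) over 14400 orders within groups. Without KP 5 and KPG1 2, the libraries farthest from the median of centered Tnf, the r of Rela was 0.0046. For r without these 2 libraries the values were not recentered, so the group means still included them. Nfkbiz (r 0.40, exact permutation p 0.25; rho 0.38, p 0.30), Nfkbia (r 0.28, p 0.42; rho 0.32, p 0.32, exact) and Tnfaip3 (r 0.22, p 0.53; rho 0.15, p 0.67, exact) were at -0.24, 0.10 and -0.10 without those libraries. Rel had the lowest r (-0.42, exact permutation p 0.27; rho -0.37, p 0.33) and was at -0.29 without them. Without KP 5 alone, recentered, 4 members had an r above 0.

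**Figure D4:**
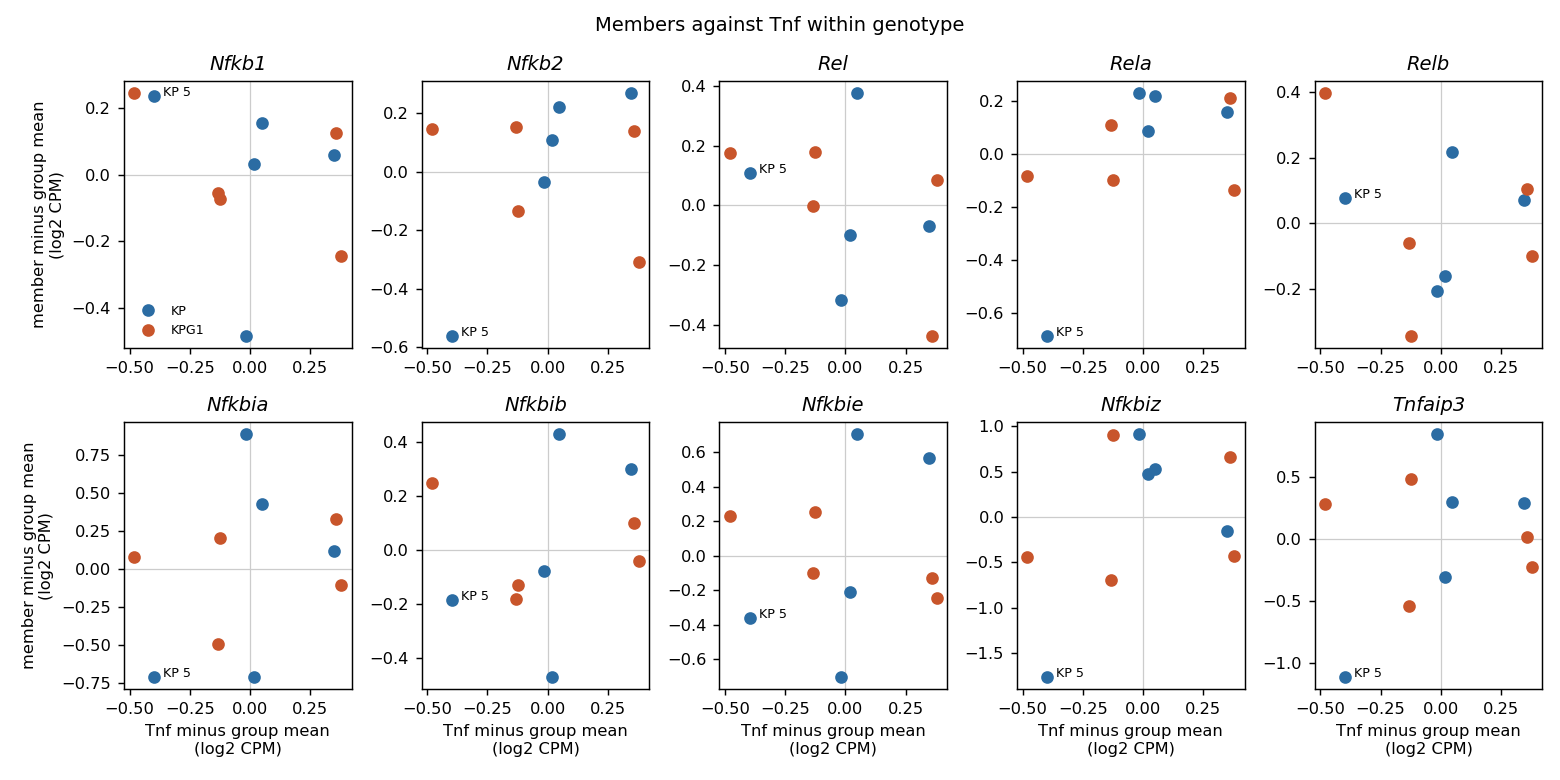
Each member against Tnf, both as log2 CPM minus the mean of their own group, with KP in blue and KPG1 in orange. KP 5 is low for both Tnf and Rela, Nfkb2, Nfkbiz and Tnfaip3.

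Other genes of the pathway were read from lists of known components. Over all genes, 0.173% passed in limma, 0.247% in edgeR and 3.46% in DESeq2, and 6.31% were lower at an unadjusted limma p under 0.05. These shares stand beside the counts of each list below. Of the other IkB genes, Bcl3 (log2 fold change -0.00008) and Nfkbid (-0.44, limma adjusted p 0.56) did not pass. Of 26 kinases and adaptors upstream of NF-kB, 0 passed in limma or edgeR, DESeq2 called 1, 1 had an unadjusted p under 0.05 and the median log2 fold change was 0.01. That gene was Irak2, a kinase of the interleukin-1 receptor complex, at 6.65 to 7.18 log2 CPM in KP and 6.04 to 6.50 in KPG1 without overlap (-0.62, SE 0.15, limma adjusted p 0.15). Irak2 passed under DESeq2 (adjusted p 0.0075), with a weight per library (limma adjusted p 0.033) and without KP 5 (0.049), while the other alternatives reached 0.39. The IkB kinase genes Chuk (0.28, limma adjusted p 0.47), Ikbkb (-0.17, 0.76) and Ikbkg (-0.21, 0.54) did not pass. Of 13 genes for ubiquitin editing around A20, 0 passed in limma, edgeR and DESeq2, 0 had an unadjusted p under 0.05 in limma, and the fitted values ran from -0.30 to 0.20.

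Of 16 tested receptors and ligands that signal to NF-kB, 1 passed in limma and edgeR, Tnf, and 3 had an unadjusted p under 0.05, all lower. DESeq2 called 2, Tnf and Il1a. The others were Il1a, the gene of an interleukin-1 ligand (log2 fold change -1.38, SE 0.43, limma adjusted p 0.26, DESeq2 adjusted p 0.0060), and Tnfrsf12a, the TWEAK receptor gene (-0.55, SE 0.20, adjusted p 0.32). The TNF receptor genes Tnfrsf1a (0.10, limma adjusted p 0.79) and Tnfrsf1b (-0.04, 0.97) overlapped between groups. The median of this list was 0.01.

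Of 29 tested NF-kB target genes outside the members, 1 passed in limma and in edgeR, DESeq2 called 6, and 10 had an unadjusted p under 0.05, 8 lower and 2 higher. Of all 16216 genes tested in limma, 1024 were lower and 853 higher at that unadjusted level. The median of this list was -0.27. Ier3, an immediate early gene that modulates cell survival, was lower (7.14 to 7.62 log2 CPM in KP against 6.02 to 6.70 in KPG1, log2 fold change -1.07, SE 0.15, limma adjusted p 0.024). It missed the threshold when KP 1, KP 3, KP 4, KPG1 2, KPG1 3, KPG1 4 or KPG1 5 was left out, with log2 fold changes no nearer to 0 than -1.01. Zc3h12a, the gene of a ribonuclease that degrades inflammatory transcripts, gave -0.77 (SE 0.19, limma adjusted p 0.15) without overlap, the neutrophil chemokine gene Cxcl1 gave -1.29 (SE 0.46, adjusted p 0.31) and Ptgs2, the gene of cyclooxygenase-2, gave -1.30 (SE 0.47, adjusted p 0.33). DESeq2 called Zc3h12a (adjusted p 0.0030), Ptgs2 (0.026) and Cxcl1 (0.0498), and with a weight per library Zc3h12a (limma adjusted p 0.040) and Ptgs2 (0.032) passed. Ptgs2 also passed without KP 5 (log2 fold change -1.77, limma adjusted p 0.026). Over all alternatives the adjusted p reached 0.35, 0.58 and 0.58 for Zc3h12a, Ptgs2 and Cxcl1. The 2 higher genes at the unadjusted level were Lcn2 (1.38, limma adjusted p 0.38) and Cflar (0.32, adjusted p 0.33), named after their values were seen.

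Genes known to be induced by tissue dissociation had lower values in KPG1, as Nfkbia, Nfkbiz and Tnfaip3 did. Of 14 such genes 11 had an unadjusted p under 0.05 and had lower values in KPG1. The list's median log2 fold change was -1.16, and 1 gene passed, Fosb (-1.82, SE 0.30, limma adjusted p 0.046), which missed the threshold when any 1 library other than KP 5 was left out. Egr1 (-1.07, adjusted p 0.0501), Dusp1 (-1.27, adjusted p 0.0513) and Fos (-1.17, adjusted p 0.0852) did not pass in limma with all 10 libraries. They passed in 6, 6 and 3 of 17 alternatives. DESeq2 called 10 of the 14. Their summed level was 13121, 14142, 11532, 10004 and 8663 CPM in KP 1 to KP 5 and 6558, 4062, 4642, 3455 and 6170 CPM in KPG1 1 to KPG1 5, without overlap. KP 5 was the lowest KP tumor in this sum, as it was for Nfkbiz, Tnfaip3 and Nfkbia. For Nfkbia KP 4 was nearly equal (6.645 against 6.641 log2 CPM). KPG1 1 and KPG1 5 were the highest KPG1 tumors in the sum, in Nfkbia and in Nfkbiz. KPG1 4 was the lowest KPG1 tumor in the sum and for Nfkbia, Nfkbiz and Tnfaip3. Other ranks did not all match. KP 2 had the highest sum, while KP 1 was the highest KP tumor for Nfkbia, Nfkbiz and Tnfaip3. For Tnfaip3, KPG1 2 stood above KPG1 5 (6.41 against 6.14 log2 CPM), although its sum was lower. Nfkbia, Nfkbiz and Tnfaip3 are themselves immediate early genes. The part of dissociation in their differences was not tested.

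**Figure D5:**
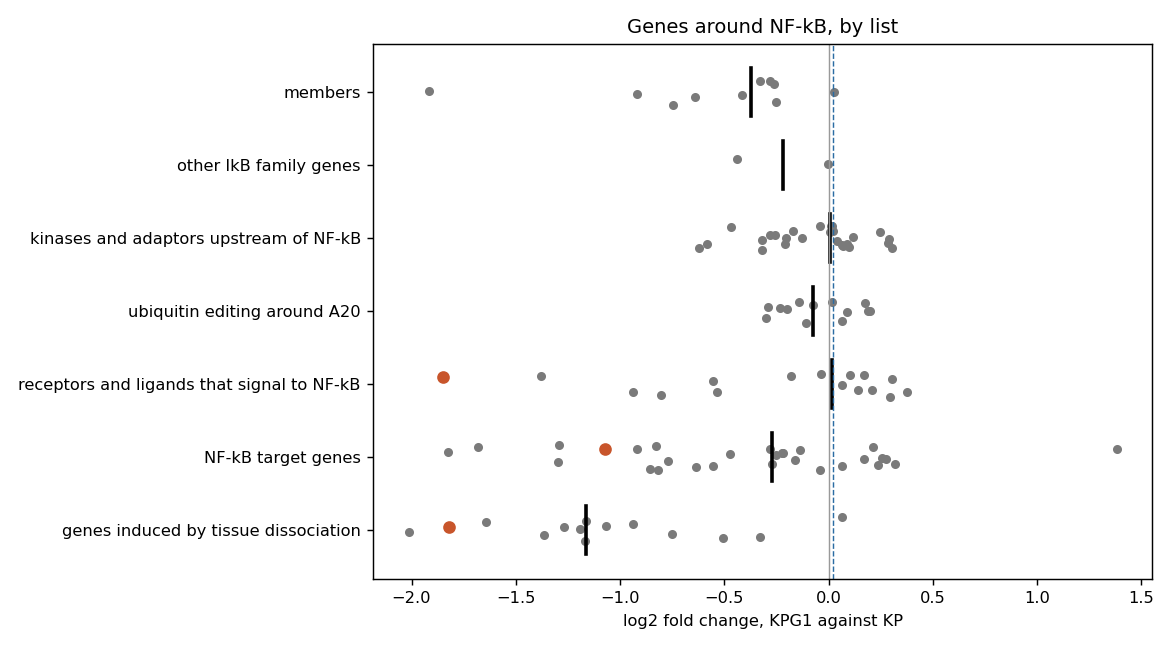
Log2 fold change (KPG1 against KP) of each tested gene by list; orange points passed an adjusted p of 0.05 in limma, black bars are list medians and the dashed line is the median of all genes. The dissociation genes have the lowest median (-1.16), the members -0.37, and the upstream kinases and adaptors 0.01.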

How the data were processed

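Per the labels and the methods, the authors dissociated macrodissected tumors, depleted CD45-positive cells with magnetic beads, made stranded mRNA libraries and sequenced single-end reads. The submitters' processing notes name bcl2fastq 2.17, cutadapt 1.4.2, HISAT2, featureCounts 1.4.4, edgeR and the build mm10. The deposited values used are raw counts per gene. A deposited table of log2 normalized values was not used. Genes passing edgeR's filterByExpr were scaled by TMM (edgeR 4.0.16) and fitted with voom and limma 3.58.1 on genotype, with Benjamini-Hochberg adjustment over all genes at 0.05. Log2 CPM used a prior count of 2. Positions and exonic lengths are from GENCODE on mm10, and promoters from RefSeq GRCm38.p6. The fit was also run on simulated counts with known fold changes, and the outcome is not reported here. Those counts held no outlying library and no effect of sample order. Whether the samples are separate animals is not stated beyond their separate labels, so p values measure the spread between these libraries. Same-numbered KP and KPG1 libraries did not deviate together (correlations -0.16 to 0.08), so the replicate numbers did not pair them. By the sample numbers in the titles, every KPG1 sample came before the KP samples, except that KP 5 lay among the KPG1 samples. Genotype therefore nearly follows sample order, and a difference by order cannot be told apart from one by genotype. What the sample numbers record was not tested. The gene members and lists were chosen with earlier results of these data known. Named genes were all members, Tnf, Slc2a1, from each list those that passed and up to 3 more with the smallest p under 0.05, and the 5 most like Relb and Nfkbia, of which 1 is not reported here. Other genes are named for context.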

Additional observations from a re-analysis of the deposited data

Results flagged for a closer look

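A library was looked for that lay far from the other 4 of its group, by a gap of more than 0.71 of the group's range, in 46 groups of 5 (the members, Tnf, Slc2a1 and the named list genes in each genotype). It was found 4 times, where chance gives about 2.3. For Rela, KP 5 stood at 5.82 and the rest of KP at 6.60 to 6.74 log2 CPM, a gap of 0.844 of the range. For Nfkb1, KP 1 stood at 6.09 against 6.61 to 6.81, a gap of 0.716. For Ptgs2, KP 5 stood at 5.58 against 7.62 to 8.34, a gap of 0.739. For Zc3h12a, KPG1 5 stood at 2.80 against 3.35 to 3.49, a gap of 0.806.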

How the results depend on the processing

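The number of members past the threshold (0) rose to 3 under DESeq2 and to 1 with a weight per library, and leaving out single libraries gave 0 to 2, with the 2 (Nfkbiz and Rela) without KP 5. The number with an unadjusted p under 0.05 (4) was 7 with a weight per library. That setting also raised the share of all genes past the adjusted threshold, from 0.173% to 1.41%. Its share of all genes at the unadjusted level is not given here, so the 7 cannot be set against it. The number without overlap (1) was 1 to 4 when single libraries were left out. Slc2a1 passed under DESeq2 (-1.04) and with a weight per library (-1.13), and was -1.14 to -0.92 without single libraries. The sign turned for Nfkb1 without KP 1 (-0.093), KPG1 2 (-0.039) and KPG1 5 (-0.0014), and its values without single libraries ran from -0.093 to 0.091. Slopes on Tnf turned without KP 5 for Nfkb2 (-0.17), Nfkbie (-0.06) and Tnfaip3 (-0.35), without KP 3 for Nfkbie (-0.14) and without KPG1 2 for Relb (0.15). Without single libraries these slopes ran from -0.17 to 0.57 for Nfkb2, -0.26 to 0.15 for Relb, -0.14 to 0.56 for Nfkbie and -0.35 to 1.07 for Tnfaip3. With the replicate block, 0 members passed, 4 had an unadjusted p under 0.05, and Tnf (-1.85, adjusted p 0.092), Ier3 and Fosb lost their calls. Genes past the threshold over all genes (10 higher, 18 lower) were 4 and 1 with that block, 125 and 423 under DESeq2, 51 and 177 with a weight per library, 11 and 29 in edgeR, and 3 to 71 and 1 to 223 without single libraries, the highest without KP 5. The cause of these shifts was not tested. Rel and Nfkbie had as few as 156 and 165 counts in a library, which limits their precision, and Rel, Nfkbib and Nfkbie could not be fitted at a mean CPM of 20.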
